A study of Homo sapiens with 6 samples.

Results

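The core spliceosome snRNP proteins were taken as the protein-coding genes of the count table whose symbols name Sm proteins (SNRPB to SNRPG and SNRPN), other snRNP proteins (SNRPA, SNRPC, SNRNP genes), SF1, U2AF proteins, SF3A and SF3B proteins, PRPF proteins, LSM1 to LSM8, SMNDC1 and the helicases DDX46, DHX15, DHX16 and DHX38. The rule found 59 genes among the 30618 in the table. It reads gene names and gene type and not measured values, but it was set with earlier results of these data known. Their mRNA levels were compared between ARPE-19 cells, an established human retinal pigment epithelial line, that received a negative control siRNA (NC group, n = 3) and cells with siRNA knockdown of the translation initiation factor EIF1 (siEIF1 group, n = 3). Every library came from cells in 50 mM glucose, so a normal-glucose culture is not part of the comparison, and the siEIF1 group is a transient knockdown in 1 cell line.

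As background, the spliceosome removes introns from precursor mRNA and is built from small nuclear ribonucleoprotein particles (snRNPs). Each particle holds a U-rich small nuclear RNA, a ring of Sm or LSm proteins around that RNA, and proteins particular to the particle. The U1 snRNP pairs with the 5' splice site, SF1 and the U2AF proteins mark the branch point and the 3' splice site, the U2 snRNP replaces SF1 at the branch point, and the U4/U6 and U5 snRNPs then join as a tri-snRNP that is rearranged by helicases into the catalytic form. All cells that splice mRNA use these proteins, retinal pigment epithelial cells included, and inherited forms of retinal degeneration are known for PRPF3, PRPF4, PRPF6, PRPF8, PRPF31 and SNRNP200.

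The libraries held between 26499929 and 31431479 counts, and 16749 genes passed the filter on low counts, all 59 core spliceosome genes included. EIF1 itself had an FPKM (the authors' level scaled by transcript length and library size) of 294.35, 281.08 and 281.28 in NC replicates 1 to 3 and of 24.28, 22.68 and 23.5 in siEIF1 replicates 1 to 3, which is -3.58 as a log2 fold change (standard error 0.055, adjusted p = 1.08e-13 by edgeR). Of 13 retinal pigment epithelium markers, KRT18, KRT8, BEST1, TIMP3 and OTX2 were well expressed, while the pigmentation enzymes TYR, TYRP1 and DCT had only 4, 42 and 10 counts over the 6 libraries and RPE65 was not analysed here. The summed FPKM of this list was 574.1 to 597.0 in the NC and 617.4 to 657.7 in the siEIF1 libraries. KRT18 (mean 326.5 and 382.0 FPKM) and KRT8 (113.0 and 131.5) were its largest parts. At an edgeR adjusted p under 0.05, 3 of 9 tested members were higher (RLBP1, KRT8 and KRT18), beside 10.2% of all tested genes, and 0 were lower. RLBP1 was near the floor, at 0.24 and 0.68 FPKM. Of the 9, 4 had negative fold changes, among them BEST1 (log2 fold change -0.32, edgeR adjusted p = 0.106) and TIMP3 (-0.12). Among 12 markers of other cell types, 3 were not analysed here, 7 had 2 to 55 counts over the 6 libraries, and PAX6 and RGS5 were the tested members. PAX6 was higher (log2 fold change 0.19, edgeR adjusted p = 0.0124). The summed FPKM of these markers was 2.68 to 2.83 in the NC and 2.94 to 3.07 in the siEIF1 libraries.

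Of the 59 core spliceosome genes, 7 were lower and 3 higher in the siEIF1 group at an adjusted p under 0.05 by the quasi-likelihood test of edgeR, adjusted by Benjamini-Hochberg over all tested genes, and 49 did not pass. The lower genes were the Sm proteins SNRPB and SNRPG, the LSm proteins LSM3, LSM4 and LSM5, the U4/U6 protein PRPF4 and the helicase DHX15. The higher genes were the U1 protein SNRPA, the U2 protein SF3B2 and the U5 protein PRPF6. The 10 genes are 16.9% of the group, beside 20.6% of all tested genes that passed the same threshold and 27.7% of the 9589 genes with a mean count of at least 300. By direction, 11.9% were lower and 5.08% higher, beside 10.4% and 10.2% of all tested genes and 13.2% and 14.4% of those 9589 genes. The share that passed was below both backgrounds, the lower share was near them, and the higher share was below them. These shares were not tested against each other. The number of higher genes was 1 without NC replicate 1, without NC replicate 3 or without siEIF1 replicate 2, and 5 without siEIF1 replicate 1.

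The changes were small. The log2 fold changes of the 59 genes lay between -0.35 and 0.21, which means that the most reduced gene, LSM5, fell by 21.3% and the most increased, SF3B2, rose by 15.8%. With the fold change limits of the study's methods (above 2 or below 0.5) added to the adjusted p, 0 of the 59 genes were called by edgeR, DESeq2 or limma on FPKM, beside 1.71% of all tested genes by edgeR, while 19 of the 59 had an unadjusted p under 0.05 by edgeR, a threshold that 32.6% of all tested genes passed. The median log2 fold change was -0.047, beside 0.0033 over all tested genes, and 38 of the 59 values were negative, beside 8266 of all 16749 tested genes. A fold change within 0.1 of 0 on the log2 scale was found for 54.2% of the core spliceosome genes, for 35.7% of all tested genes and for 43.8% of the genes at a mean count of 300 or more. The depth allowed narrow intervals. For the 56 genes other than U2AF1, U2AF1L4 and U2AF1L5, with mean counts from 351.5 to 7353, the 95% interval of the log2 fold change stayed within 0.5 of 0 in every case. For the 46 of these that did not pass, the intervals covered changes from -23.5% to 22.4% at most.

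**Figure D1:**
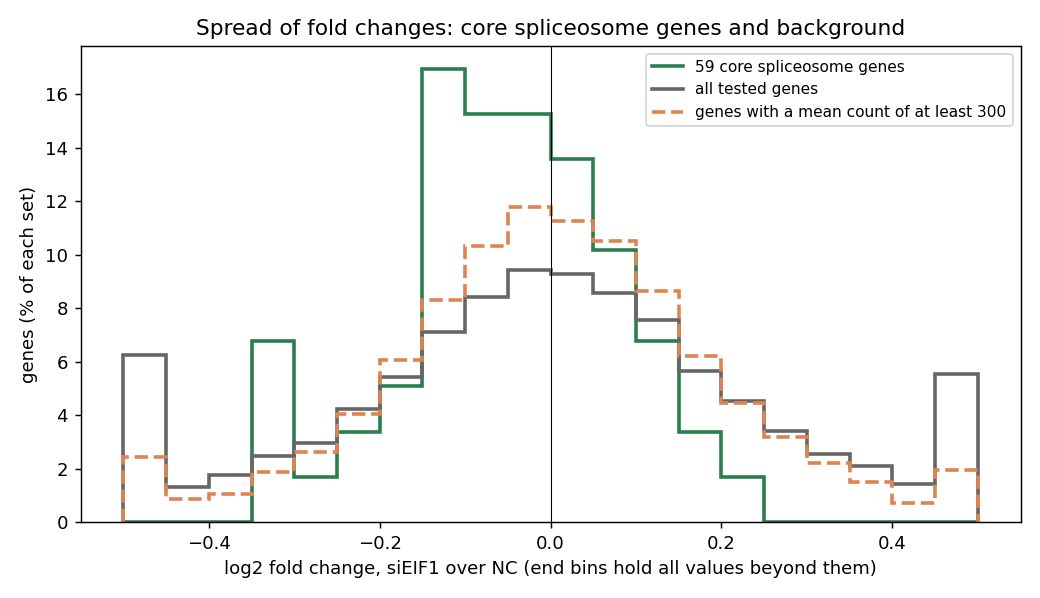
Share of genes (%, vertical axis) in bins of the log2 fold change of the siEIF1 over the NC group (horizontal axis) for the 59 core spliceosome genes, all 16749 tested genes and the 9589 genes whose mean count was 300 or more. The end bins also hold all values beyond them. All 59 core spliceosome genes lie between -0.35 and 0.21, while 9.78% of all tested genes lie beyond 0.5 on either side.

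On the CPM scale (counts per library size after TMM scaling), 23 of the 59 genes (39.0%) had groups without overlap, beside 37.1% of all tested genes. That background includes genes with a mean count below 300, and no such share was computed for the 9589 genes at or above it. The siEIF1 libraries were all lower in 19 of the 59, a larger share than the 18.9% of all tested genes. They were all higher in 4 of the 59, a smaller share than the 18.2% of all tested genes. These shares were not tested against each other. Together the 59 genes took 0.491%, 0.482% and 0.49% of the counts in NC replicates 1 to 3 and 0.465%, 0.468% and 0.475% in siEIF1 replicates 1 to 3. Every siEIF1 library thus gave a smaller share of its counts to these genes than any NC library. In the same libraries the 12 genes of a proliferation list (MKI67, TOP2A, CDK1 and other cell cycle genes) were all lower at an edgeR adjusted p under 0.05. Of all tested genes, 10.4% were lower at that threshold. The 12 genes had log2 fold changes from -1.73 to -0.22 and a summed FPKM of 124.7 to 129.6 in the NC and 89.8 to 94.7 in the siEIF1 libraries. Their part in the values of the spliceosome genes was not tested. In bulk RNA, fewer cells that express a gene and less RNA per cell cannot be told apart.

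**Figure D2:**
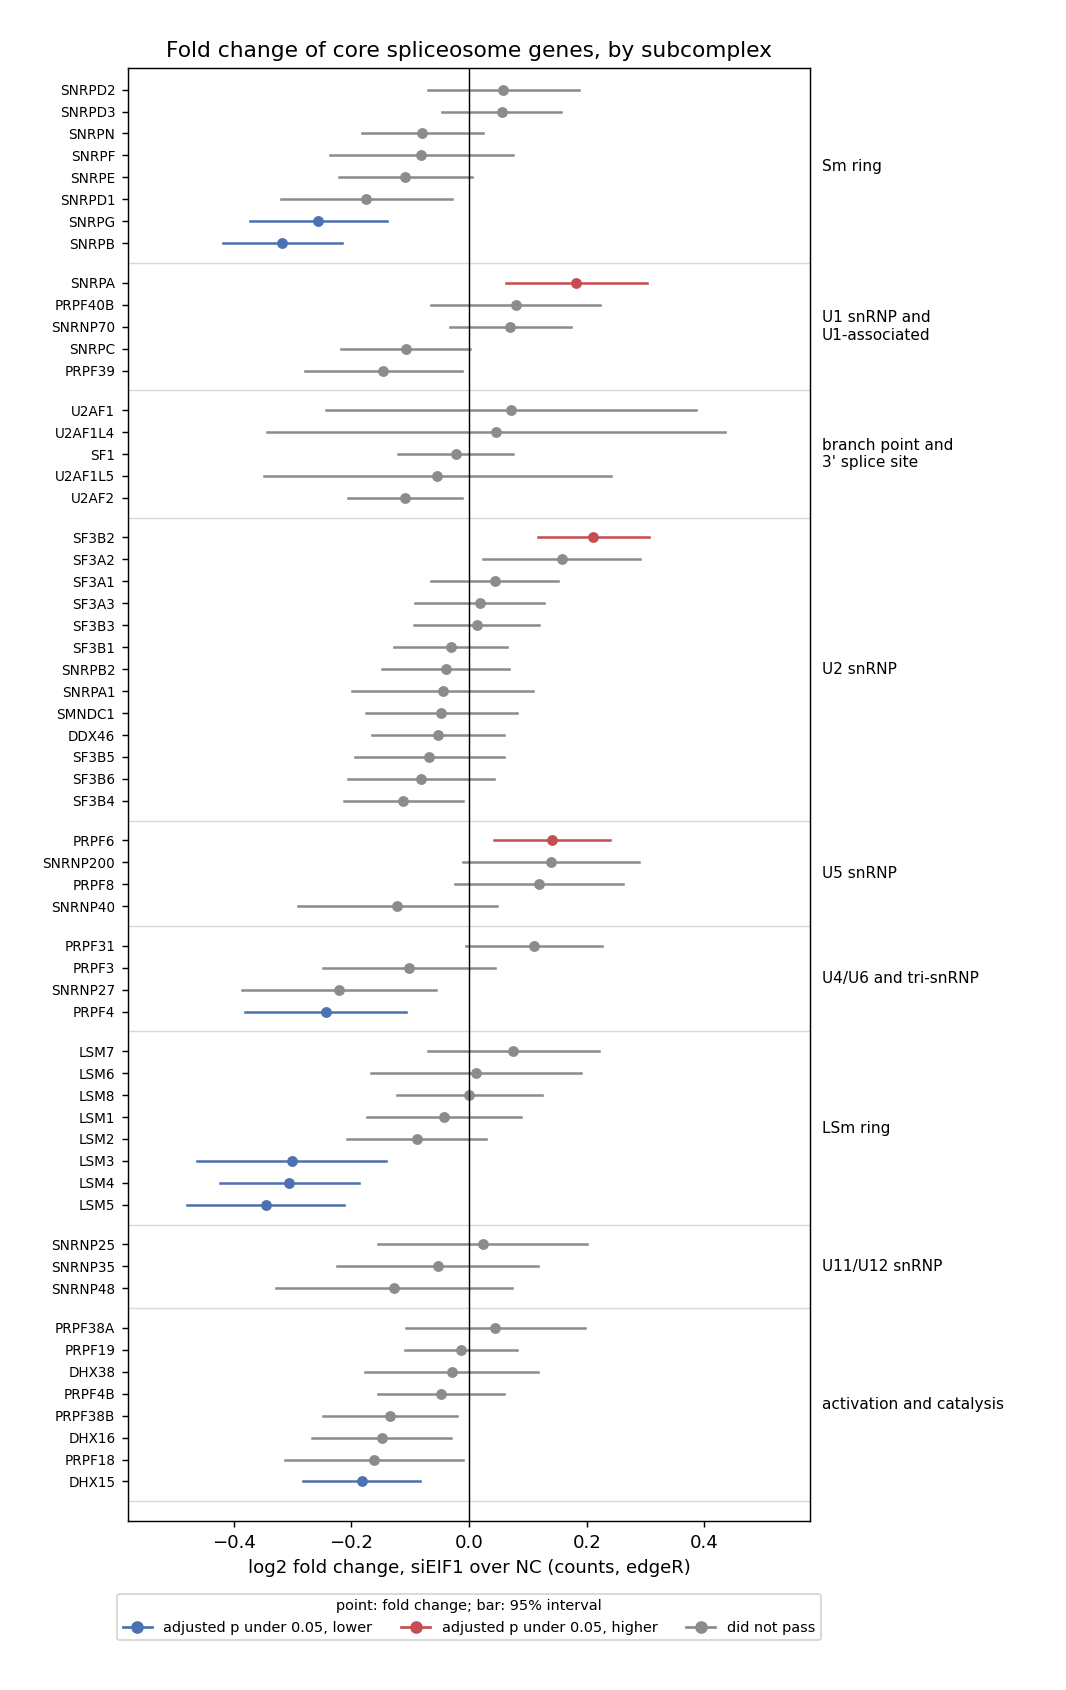
Log2 fold change of the siEIF1 over the NC group (horizontal axis, edgeR on counts) for 58 core spliceosome genes, grouped by subcomplex, with 3 libraries in each group. Points are fold changes and bars are 95% intervals, and the 7 lower genes are drawn in blue, the 3 higher in red and 48 that did not pass in grey.

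The 10 genes that passed were located in GENCODE release 44 (GRCh38). On the minus strand are SNRPB (chromosome 20, 2461634 to 2470853), SNRPG (chromosome 2, 70281362 to 70293740), LSM4 (chromosome 19, 18306236 to 18323112), LSM5 (chromosome 7, 32485338 to 32495283) and DHX15 (chromosome 4, 24517441 to 24584554). On the plus strand are LSM3 (chromosome 3, 14178817 to 14201122), PRPF4 (chromosome 9, 113275642 to 113294009), SF3B2 (chromosome 11, 66050729 to 66069308), SNRPA (chromosome 19, 40750637 to 40765389) and PRPF6 (chromosome 20, 63981132 to 64033100). SNRPB overlaps another annotated gene on its own strand, so reads of the overlap could belong to either gene. SNRPA and SF3B2 each overlap an antisense gene (ACTMAP for SNRPA), whose reads could be included if strand was not used in counting.

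The Sm proteins B, D1, D2, D3, E, F and G form the ring around the U1, U2, U4 and U5 RNAs, and SmN, from SNRPN, is a close relative of SmB. Of the 8 Sm genes, 2 were lower, 0 were higher (also 0 at an unadjusted p under 0.05 by edgeR, and 0 by DESeq2), and the median log2 fold change was -0.095 (-0.15 without siEIF1 replicate 2). SNRPB, the most abundant of the 59 mRNAs per length, had an FPKM of 154.54, 146.16 and 151.25 in NC replicates 1 to 3 and of 122.66, 117.13 and 117.76 in siEIF1 replicates 1 to 3. The groups did not overlap and lay far apart relative to their spread. Its log2 fold change was -0.32 (standard error 0.047, edgeR adjusted p = 0.000370). SNRPG had an FPKM of 24.8, 23.45 and 23.31 in the NC and of 19.68, 19.8 and 19.59 in the siEIF1 libraries. Here the siEIF1 libraries were nearly equal and all below the NC libraries (log2 fold change -0.26, standard error 0.054, edgeR adjusted p = 0.00468). Both calls held under the 15 alternatives without a fold limit.

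The other Sm genes did not follow them to the same extent. SNRPD1 had a log2 fold change of -0.17 (edgeR adjusted p = 0.0879), SNRPE of -0.11, SNRPF of -0.081 and SNRPN of -0.080. SNRPD2, the second most abundant Sm mRNA, had 97.1 ± 2.14 FPKM (SD, n = 3) in the NC and 99.6 ± 6.54 in the siEIF1 libraries. Its log2 fold change was 0.059, and its 95% interval ran from -0.070 to 0.19. SNRPD3 had a log2 fold change of 0.056. In the cell the Sm proteins enter the ring in equal number, but their mRNA levels per length spread 12.3-fold in the NC group, from SNRPB at 150.7 FPKM to SNRPD1 at 12.2. This spread depends on the length assigned to each gene (canonical transcripts of 1082 and 4858 bases). Mean counts over the 6 libraries differed less, at 6086.5 for SNRPB and 1968.8 for SNRPD1, and SNRPF had the lowest at 1348.5.

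The paralogs SNRPB and SNRPN were also set against each other within each library. The FPKM of SNRPN was 16.2% ± 0.509 (SD, n = 3) of that of SNRPB in the NC group and 19.1% ± 0.324 (SD, n = 3) in the siEIF1 group. The 3 siEIF1 values lay above the 3 NC values (exact permutation test, two-sided, p = 0.1, and no smaller p is possible with 3 libraries in each group). The ratio restates the fold changes above, -0.32 for SNRPB and -0.080 for SNRPN on the log2 scale, and is not a separate result. This ratio is uncertain in its size, because SNRPN overlaps SNURF and SNHG14 on the same strand and 60.3% of the 100-base windows of its canonical transcript also occur in transcripts of other genes (GENCODE release 44), these genes among them. For SNRPB the share is 5.60% and for SNRPG 6.06%. Processed copies took few reads as counted: the 19 pseudogenes of the 59 genes that have a row in the table held 14 to 25 counts in all per library.

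**Figure D3:**
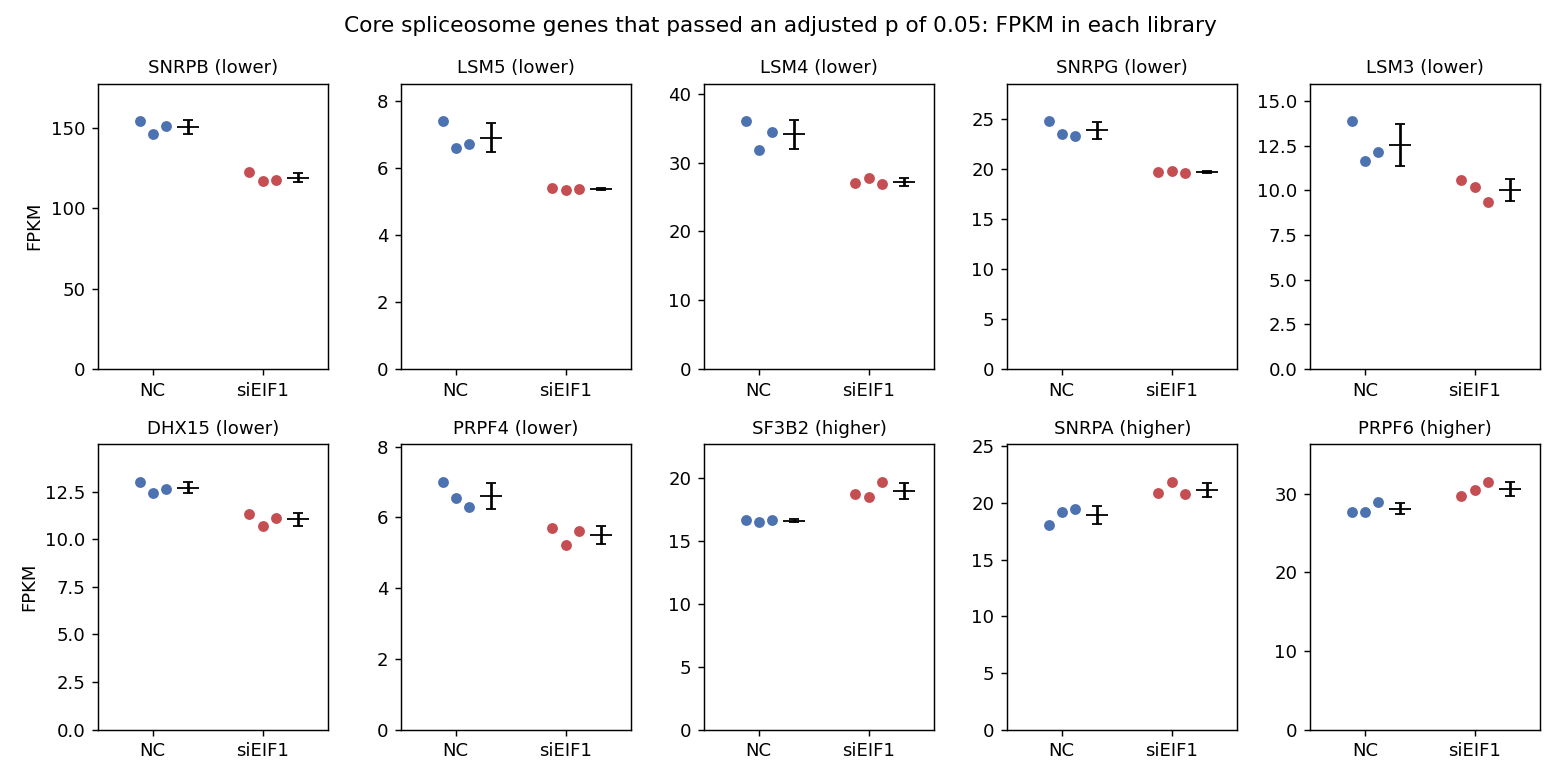
FPKM (vertical axes, each starting at 0) in each library for the 7 lower and the 3 higher core spliceosome genes. Points are the 3 NC and the 3 siEIF1 libraries, and the cross beside them is the mean with its SD. In each of the 10 genes the groups do not overlap, and the largest step as a ratio is that of LSM5, from 6.92 to 5.37 FPKM.

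The LSm proteins 2 to 8 form the ring at the end of the U6 RNA, and LSM1 takes the place of LSM8 in a cytoplasmic ring that acts in mRNA decay. Of the 8 LSm genes, 3 were lower (37.5%, beside 10.4% of all tested genes and 13.2% of genes with a mean count of at least 300). Of the 8, 0 were higher (0 also at an unadjusted p under 0.05 by edgeR, and 0 by DESeq2). The median log2 fold change was -0.066 (-0.043 without siEIF1 replicate 3). LSM5 had an FPKM of 7.42, 6.6 and 6.74 in the NC and of 5.4, 5.34 and 5.37 in the siEIF1 libraries. The siEIF1 libraries were nearly equal and below all NC libraries (log2 fold change -0.35, standard error 0.062, edgeR adjusted p = 0.00151). LSM4, the most abundant of the LSm mRNAs, had an FPKM of 36.1, 31.87 and 34.5 in the NC and of 27, 27.85 and 26.84 in the siEIF1 libraries. The groups did not overlap, and the NC libraries were the more scattered (log2 fold change -0.31, standard error 0.055, edgeR adjusted p = 0.00158). LSM3 had an FPKM of 13.9, 11.66 and 12.16 in the NC and of 10.59, 10.18 and 9.38 in the siEIF1 libraries. NC replicate 1 stood highest in this gene (log2 fold change -0.30, standard error 0.075, edgeR adjusted p = 0.0117), and without it the log2 fold change was -0.22 (edgeR adjusted p = 0.0563). With limma on log2(FPKM + 1) without a filter LSM3 did not pass either (limma adjusted p = 0.0907).

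LSM3, LSM4 and LSM5 belong both to the U6 ring and to the cytoplasmic ring. The members found in just 1 of the rings did not pass: LSM8 of the U6 ring had a log2 fold change of 0.00029 (95% interval -0.12 to 0.12) and LSM1 of the cytoplasmic ring of -0.042 (95% interval -0.17 to 0.088). Among the other shared members, LSM2 had -0.089, LSM6 had 0.012 and LSM7 had 0.075. The mRNA levels per length spread 20.3-fold in the NC group, from LSM4 at 34.2 FPKM to LSM8 at 1.69. Mean counts over the 6 libraries differed less, at 3098 for LSM4 and 1027.5 for LSM8. Their canonical transcripts have 1704 and 12384 bases, so the FPKM spread depends on the length assigned to each gene.

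The U1 snRNP carries SNRNP70, SNRPA and SNRPC, and PRPF39 and PRPF40B are among the proteins associated with it. SNRPA, which binds a stem-loop of U1 RNA, had an FPKM of 18.06, 19.22 and 19.49 in the NC and of 20.85, 21.87 and 20.76 in the siEIF1 libraries. The groups did not overlap, with NC replicate 1 the lowest (log2 fold change 0.18, standard error 0.055, edgeR adjusted p = 0.0327). The call was lost without NC replicate 1 (log2 fold change 0.15, edgeR adjusted p = 0.118), without NC replicate 2 (0.20, adjusted p = 0.0664), without NC replicate 3 (0.19, adjusted p = 0.0803) and without siEIF1 replicate 2 (0.14, adjusted p = 0.151). It was also lost with no count filter (edgeR adjusted p = 0.0505) and with limma on log2(FPKM + 1) without a filter (limma adjusted p = 0.0942). The other 5 U1 genes did not pass, so 0 were lower (1, PRPF39, at an unadjusted p under 0.05 by edgeR, and 0 by DESeq2). The 1 higher of the 6 U1 genes is 16.7%, beside 10.2% of all tested genes. SNRPC, the most abundant at 59.6 ± 2.49 FPKM (SD, n = 3) in the NC and 54.5 ± 1.96 in the siEIF1 libraries, had a log2 fold change of -0.11, SNRNP70 of 0.070 and PRPF39 of -0.15.

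SF1 binds the branch point, U2AF2 the polypyrimidine tract and U2AF1 the AG of the 3' splice site. Of the 5 genes of this group 0 passed by edgeR or DESeq2, and 1, U2AF2, had an unadjusted p under 0.05 by either tool. U2AF2 had 35.2 ± 0.647 FPKM (SD, n = 3) in the NC and 32.2 ± 1.08 in the siEIF1 libraries (log2 fold change -0.11, edgeR adjusted p = 0.111), and SF1 had 29.1 ± 0.851 and 28.2 ± 1.17 (log2 fold change -0.023). U2AF1 was listed at 0.25 ± 0.017 FPKM in the NC and 0.26 ± 0.020 in the siEIF1 libraries, far below its partner U2AF2. Its counts were 86, 106 and 92 in NC replicates 1 to 3 and 102, 116 and 104 in siEIF1 replicates 1 to 3. This level cannot be read as that of the U2AF1 mRNA, because GRCh38 holds a near-identical copy on the same chromosome, U2AF1L5. U2AF1 lies on chromosome 21 from 43092956 to 43107570 and U2AF1L5 from 6484623 to 6499248 (GENCODE release 44), and 98.6% of the 100-base windows of the canonical U2AF1 transcript occur also in U2AF1L5 or another gene. The authors counted uniquely mapped reads, and reads from such windows map to more than 1 place. U2AF1L5 had 119 to 142 counts in the NC and 127 to 152 in the siEIF1 libraries, and U2AF1L4 had 49 to 62 counts over all libraries. Whether U2AF1 differs between the groups was not detectable at these counts (log2 fold change 0.072, 95% interval -0.24 to 0.39).

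**Figure D4:**
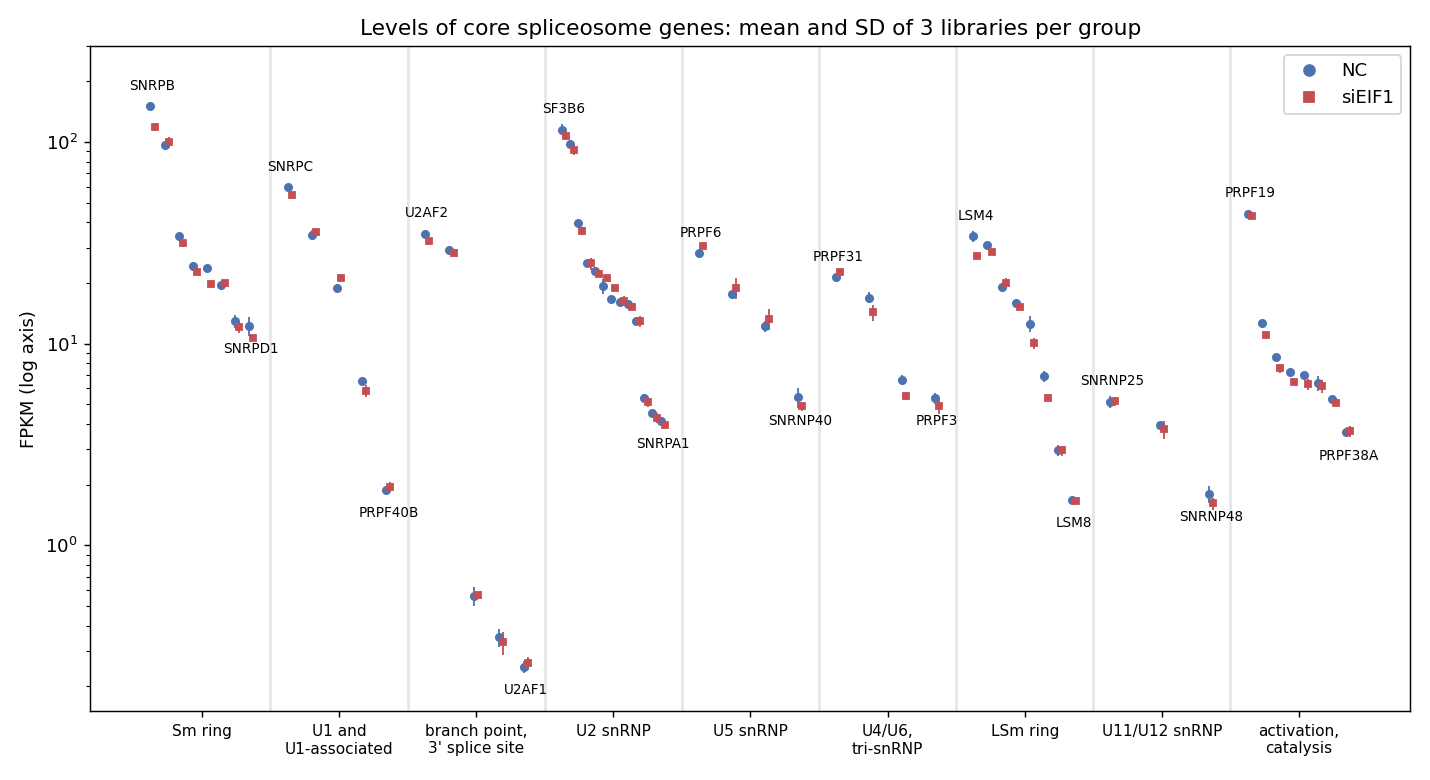
FPKM (vertical log axis) of 58 core spliceosome genes, ordered within its subcomplex by the NC mean, with the highest and the lowest gene of each subcomplex named. Circles are NC means, squares are siEIF1 means and bars are the SD of 3 libraries. U2AF1, at 0.25 FPKM in the NC group, is the lowest of all, 141-fold below U2AF2.

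The U2 snRNP group held 13 genes, of which 1 was higher (7.69%, beside 10.2% of all tested genes). In this group 0 were lower (by edgeR 1 at an unadjusted p under 0.05, by DESeq2 0). The median log2 fold change was -0.039 (-0.018 without NC replicate 1, -0.021 without siEIF1 replicate 3 and -0.026 without siEIF1 replicate 2). SF3B2, a subunit of the SF3B complex that holds the branch point, had an FPKM of 16.66, 16.45 and 16.64 in the NC and of 18.69, 18.46 and 19.68 in the siEIF1 libraries. The NC libraries were nearly equal and all siEIF1 libraries were above them (log2 fold change 0.21, standard error 0.044, edgeR adjusted p = 0.00399), and the call held under the 15 alternatives without a fold limit. The other SF3B subunits did not pass. SF3B1, which contacts the branch point, had 15.8 ± 0.060 FPKM (SD, n = 3) in the NC and 15.2 ± 0.465 in the siEIF1 libraries (log2 fold change -0.031), SF3B3 had a log2 fold change of 0.013, SF3B4 of -0.11, SF3B5 of -0.068 and SF3B6, the most abundant of the U2 group at 115.5 FPKM in the NC group, of -0.082 (-0.028 without NC replicate 1 and -0.042 without siEIF1 replicate 3). Of the SF3A subunits, SF3A2 came closest to passing (log2 fold change 0.16, edgeR adjusted p = 0.0917), while SF3A1 had 0.043 and SF3A3 0.018. SNRPA1 and SNRPB2, which bind U2 RNA, had log2 fold changes of -0.044 and -0.039.

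Of the 4 U5 genes, 1 was higher and 0 were lower (0 also at an unadjusted p under 0.05 by edgeR, and 0 by DESeq2). PRPF6, which bridges U5 and U4/U6 in the tri-snRNP, had an FPKM of 27.66, 27.71 and 28.92 in the NC and of 29.67, 30.48 and 31.52 in the siEIF1 libraries. The groups did not overlap, but the gap between NC replicate 3 and siEIF1 replicate 1 was small (log2 fold change 0.14, standard error 0.046, edgeR adjusted p = 0.0439). This call was lost in 10 of the 15 alternatives without a fold limit, DESeq2 among them (adjusted p = 0.0633), and without any of NC replicates 1 to 3 or siEIF1 replicates 2 and 3 (log2 fold change 0.13 to 0.15, edgeR adjusted p = 0.0666 to 0.149). PRPF8, the large scaffold of the catalytic centre, had 17.43, 17.37 and 18.09 FPKM in the NC and 16.93, 18.34 and 21.42 in the siEIF1 libraries, and the groups overlapped, with siEIF1 replicate 3 highest and siEIF1 replicate 1 lowest (log2 fold change 0.12, edgeR adjusted p = 0.237). SNRNP200, the helicase that unwinds U4/U6, had 11.55, 12.03 and 12.96 FPKM in the NC and 11.74, 13.11 and 14.85 in the siEIF1 libraries, and here too the groups overlapped, with siEIF1 replicate 3 highest (log2 fold change 0.14, edgeR adjusted p = 0.183). Without siEIF1 replicate 1 both passed, PRPF8 at 0.19 (edgeR adjusted p = 0.0349) and SNRNP200 at 0.22 (edgeR adjusted p = 0.0195). Without siEIF1 replicate 3 the values were 0.037 for PRPF8 (edgeR adjusted p = 0.681) and 0.066 for SNRNP200 (edgeR adjusted p = 0.50).

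Of the 4 genes of the U4/U6 snRNP and the tri-snRNP, 1 was lower and 0 were higher (0 also at an unadjusted p under 0.05 by edgeR, and 0 by DESeq2). PRPF4, a U4/U6 protein that binds PRPF3, had an FPKM of 7.01, 6.54 and 6.28 in the NC and of 5.7, 5.21 and 5.6 in the siEIF1 libraries, without overlap (log2 fold change -0.24, standard error 0.063, edgeR adjusted p = 0.0153). It did not pass without NC replicate 1 (-0.20, edgeR adjusted p = 0.0668) or without siEIF1 replicate 2 (-0.22, edgeR adjusted p = 0.0689). With limma on log2(FPKM + 1) without a filter PRPF4 did not pass either (limma adjusted p = 0.0688). Its partner PRPF3 had a log2 fold change of -0.10 (edgeR adjusted p = 0.330), SNRNP27 of -0.22 (edgeR adjusted p = 0.0583) and PRPF31 of 0.11 (edgeR adjusted p = 0.173).

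Of the 8 genes of activation and catalysis, 1, DHX15, was lower (12.5%, beside 10.4% of all tested genes). At an unadjusted p under 0.05, 4 were lower by edgeR and 3 by DESeq2. Of the 8, 0 were higher (0 also at an unadjusted p under 0.05 by edgeR, and 0 by DESeq2). The fold change was negative in 7, with a median of -0.091 on the log2 scale (-0.10 to -0.084 with a library left out). DHX15, the helicase that takes spent spliceosomes apart, had an FPKM of 13.03, 12.44 and 12.66 in the NC and of 11.34, 10.69 and 11.1 in the siEIF1 libraries, without overlap (log2 fold change -0.18, standard error 0.046, edgeR adjusted p = 0.0127). Without siEIF1 replicate 2 it was just over the threshold (-0.18, edgeR adjusted p = 0.0526). The helicases DHX16 and DHX38, which act before the first and the second catalytic step, had log2 fold changes of -0.15 (edgeR adjusted p = 0.0734) and -0.030. PRPF18 had a log2 fold change of -0.16 (edgeR adjusted p = 0.130) and PRPF38B of -0.13 (edgeR adjusted p = 0.0934). PRPF19, the scaffold of the complex that bears its name and the most abundant here at 44.2 ± 0.899 FPKM (SD, n = 3) in the NC and 43.2 ± 1.36 in the siEIF1 libraries, had a log2 fold change of -0.013 (95% interval -0.11 to 0.082). The 3 proteins of the U11/U12 snRNP, which serves the rare U12-type introns, did not pass by edgeR or DESeq2, also at an unadjusted p. SNRNP25 had a log2 fold change of 0.023, SNRNP35 of -0.054 and SNRNP48 of -0.13, the last with the widest standard error (0.093) of the 56 well-counted genes.

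The other parts of the machinery were read from 3 further lists, chosen, like the genes above, with results of these data known. Of 69 other spliceosome proteins, 7 were lower and 0 higher by edgeR (10.1% lower, beside 10.4% of all tested genes), where 5 had an unadjusted p under 0.05 in the higher direction and DESeq2 called 0. The lower genes with the smallest p were PLRG1, a partner of PRPF19 (log2 fold change -0.47, standard error 0.065, edgeR adjusted p = 0.000204), PPIH, a cyclophilin of the tri-snRNP (-0.33), SDE2 (-0.33) and CWC22 (-0.31). PLRG1 had 15.82, 13 and 14.71 FPKM in the NC and 10.61, 9.74 and 10.54 in the siEIF1 libraries, a larger fold change than that of any of the 59 genes. The lower count of this list was 4 without NC replicate 1, NC replicate 3, siEIF1 replicate 1 or siEIF1 replicate 2, and the higher count was 1 without siEIF1 replicate 1 or siEIF1 replicate 3. Of 25 genes of snRNP assembly and import, 6 were lower (24.0%) and 1 was higher (4.0%). The 6 include the paralogs SMN2 (log2 fold change -0.30, edgeR adjusted p = 0.0199) and SMN1 (-0.29, edgeR adjusted p = 0.0417). How far reads of these paralogs can be told apart was not examined here, so they may not be separate changes. Of all tested genes, 10.4% were lower and 10.2% higher, and 13.2% of genes with a mean count of at least 300 were lower. GEMIN2, which holds the Sm proteins before they are placed on the RNA, had 2.79, 3.11 and 3.39 FPKM in the NC and 2.22, 2.28 and 2.22 in the siEIF1 libraries (log2 fold change -0.45, standard error 0.098, edgeR adjusted p = 0.00581). CLNS1A, which gathers newly made Sm proteins for methylation, was the higher gene (0.20, standard error 0.051, edgeR adjusted p = 0.0140), and WDR77, its partner in the methyltransferase complex, was among the lower (-0.21, edgeR adjusted p = 0.0408). The lower count of this list was 1 without NC replicate 1 or without siEIF1 replicate 2, and 2 without NC replicate 2, and CLNS1A did not pass without NC replicate 2, NC replicate 3 or siEIF1 replicate 2. Among 35 SR proteins and hnRNPs, which regulate splice site choice, 8 were lower (22.9%) and 1, HNRNPA1, was higher (2.86%), beside the same background shares. The median log2 fold change was -0.064, and DESeq2 called 7 lower and 1 higher. The shares of these lists were not tested against the background.

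The median length of the canonical transcript was 2214 bases in the 7 lower, 3047 in the 3 higher and 2226 in the 49 other genes. Across the 59 genes, Spearman's rho between length and log2 fold change was 0.10, beside 0.069 across 16712 tested genes with a length. Across the 9586 of these with a mean count of at least 300 it was 0.106, near the value of the 59 genes. These are correlations across genes of the same libraries, and genes are not independent replicates.

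Promoters of the genes were read from RefSeq windows on GRCh38.p14 that run from 250 bases before to 50 bases after a start site. Of the 59 genes, 49 matched a window, all 10 that passed among them. The ETS core motif CCGGAAG, read on both strands, was present in at least 1 window of 23 of the 49 genes (46.9%), beside 12.2% of all 27305 genes with a window and 22.2% of the 10481 tested protein-coding genes with a window. It was present in 5 of the 10 genes that passed and in 18 of the 39 that did not (46.2%), so it did not separate them. The other motifs searched were CCAAT (46.9% of the 49 genes, 43.1% of the tested protein-coding genes), TGCGCA for NRF1 (18.4% and 16.1%), AAGATGG for YY1 (18.4% and 9.36%) and the E-box CACGTG (6.12% and 12.6%). These are matches of letters and not binding sites, and a RefSeq start is not always the start these cells use. The ETS matches in the 5 genes are shown, 1 for each gene, because that motif was the most frequent beside its background. Each line gives 30 bases 5' to 3' on the strand of the gene, with the motif or its reverse complement in capitals.
SNRPB, lower, chr20:2470812-2470841, minus strand: agtgagctggaCCGGAAGtaggtttctacc
SNRPG, lower, chr2:70293490-70293519, minus strand: cttcatttcttCTTCCGGtccgaggtcgcc
LSM5, lower, chr7:32495492-32495521, minus strand: cgcttccgcagCTTCCGGgctgtcacctga
SF3B2, higher, chr11:66052300-66052329, plus strand: atacggcgccaCCGGAAGttccggcaagtg
PRPF6, higher, chr20:63981015-63981044, plus strand: cctagccgcggCCGGAAGtcgtcgaaccag
The match was found in lower and in higher genes, and in both orientations. By the gene bounds of GENCODE release 44, the stretches of SNRPB, SNRPG and SF3B2 lie inside the gene and those of LSM5 and PRPF6 before its start. The match began 41 bases before the RefSeq start in SNRPB, 50 in SNRPG, 227 in LSM5, 53 in SF3B2 and 106 in PRPF6.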

How the data were processed

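RNA-seq libraries of ARPE-19 cells (3 NC, 3 siEIF1) were assigned to groups and replicate numbers by their titles. The authors trimmed reads with FASTX-Toolkit, aligned them to GRCh38 with HISAT2 and deposited raw counts of uniquely mapped reads per gene. The authors also deposited FPKM values, rounded to 2 decimals. The counting program, its strand setting and the annotation release are not given in the sources used here, so counts of overlapping genes are uncertain. The members and gene lists were chosen with earlier results of these data known. Counts were scaled by TMM, filtered with filterByExpr and fitted on 16749 genes in R 4.3.3 by the quasi-likelihood test of edgeR 4.0.16, with p adjusted by Benjamini-Hochberg, and the fit was tested on simulated data. Standard errors were derived from the F statistic. Depth was 26499929 to 31431479 counts per library. Replicates are independent per the study's methods, and libraries of a group differed by more than sampling noise (chi-square per degree of freedom 2.87 to 13.0). Alternatives were RLE and upper-quartile scaling, no filter or 10 counts in every library, DESeq2 1.42.0, limma 3.58.1 on log2(FPKM + 1), with and without a filter, or on log2(FPKM + 0.1), the replicate number as a block and leaving out each of 6 libraries (15 in all), and, apart from these, the fold change limits. Genes named are EIF1, the members that passed, the most abundant member of each subcomplex, members with near-identical copies and, of the other lists, up to 4 per direction with the smallest p. SMN1 was named beside its paralog SMN2, and other members were named after their values were seen. Transcripts and gene coordinates came from GENCODE release 44, promoters from RefSeq. Splicing itself was not analysed here, since gene counts do not measure it. Some genes are counted in the totals but are not reported here by name.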

Additional observations from a re-analysis of the deposited data

How the results depend on the processing

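RLE and upper-quartile scaling and a minimum of 10 counts in every library called the same 10 core spliceosome genes, and DESeq2 called 9 of them. The number of higher genes, 3 in the comparison above, was 1 with no count filter and 1 with limma on log2(FPKM + 1) without a filter. With the fold change limits, 0 core genes were higher and 0 lower, as were 0 and 0 of the other spliceosome proteins and 0 and 0 of the assembly genes. With a library left out in turn, 1 to 5 core genes were higher and 5 to 9 lower. The median log2 fold change of the 59 genes was -0.067 with limma on log2(FPKM + 0.1) and ran from -0.067 to -0.034 with a library left out. Of the other spliceosome proteins, 1 was higher with no count filter, and 2 were lower with limma on log2(FPKM + 1) without a filter, and with a library left out 0 to 1 were higher and 4 to 6 lower. Of the assembly genes, 3 were lower with DESeq2 and 3 with limma on log2(FPKM + 1) without a filter, where 0 were higher, and with a library left out 0 to 1 were higher and 1 to 6 lower. The cause was not tested, except that a library left out means fewer samples. Small values that were not called changed sign with a library left out: PRPF19 ran from -0.026 to 0.0046, SNRNP25 from -0.037 to 0.067, SNRPD2 from -0.00097 to 0.12, U2AF1 from -0.011 to 0.14 and U2AF1L5 from -0.15 to 0.015.

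The replicate numbers are shared by the groups, but the same-numbered libraries deviated together only weakly (r = 0.149, 0.0946 and 0.128), and each library correlated best with its own number. With the replicate number as a block, 5 core genes were higher and 9 lower, with the 10 genes above among them, and 2 of the other spliceosome proteins were higher and 12 lower. U2AF1, U2AF1L4 and U2AF1L5 had the lowest counts, with means from 57.5 to 133.0, and for U2AF1 and U2AF1L5 shared sequence limits the counts as well as depth.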
